A study of Mus musculus with 24 samples.

Results

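Erythroid progenitors of mouse fetal liver that carried a low level of Mpo transcript were set against erythroid progenitors in which it was not detected. Mpo encodes myeloperoxidase, the haem enzyme of neutrophil granules. All 24 cells of the study came from C57/Bl6J mouse fetal liver at embryonic day 14.5 and were sorted as BFU-E (burst-forming units-erythroid), which are early committed progenitors of red cells. After red cell lysis, depletion used antibodies to Ter119 and CD41, to the myeloid antigens CD11b, Ly-6G and CD16/32, to the lymphoid antigens CD3e and CD45R, and to Sca-1. Antibodies to CD24, CD71 and CD117 marked what was left, which was sorted 1 cell to a well and profiled by Smart-seq2, which copies polyadenylated RNA along its length without molecular identifiers. The labels put all cells in 1 group and name no embryo.

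The cells were chosen by measured values. Of the 24 cells, 19 had the erythroid activator Klf1 at 10 CPM (counts scaled to a total of 1000000 per cell) or more and were kept. Of these 19, 7 had 5 or more Mpo counts and are called Mpo-detected, and 12 had fewer and are called Mpo-undetected. The Mpo-detected cells are numbers 2, 3, 4, 7, 8, 13 and 22. The other 5 cells, numbers 1, 9, 19, 23 and 24, had Klf1 under 10 CPM and serve only as a scale for myeloid levels. Because a measured gene drew the line, the cells of each side count as 1 sample and no test was made. Differences are given as descriptions with their spread over cells, and SD is over the 7 or 12 cells throughout.

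Neutrophils and monocytes arise from granulocyte-monocyte progenitors, which switch on Mpo early, together with the serine protease genes Prtn3, Elane and Ctsg. The transcription factor PU.1, encoded by Spi1, and factors of the C/EBP family drive this programme, while Gata1 and Klf1 drive the erythroid one. Low levels of myeloid transcripts in erythroid progenitors are often described as lineage priming.

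The promoters of Mpo, Prtn3, Cst7 and Rsad1 were searched, and those of the granule genes Mpo and Prtn3 are shown. Each is given 5' to 3' from RefSeq on GRCm38.p6, as 300 bases that end 50 bases after the annotated start. Capitals mark matches to GAGGAA, the core letters bound by PU.1, and to AACTG, letters bound by MYB, searched on both strands.
Mpo promoter, plus strand, chr11:87793534-87793833: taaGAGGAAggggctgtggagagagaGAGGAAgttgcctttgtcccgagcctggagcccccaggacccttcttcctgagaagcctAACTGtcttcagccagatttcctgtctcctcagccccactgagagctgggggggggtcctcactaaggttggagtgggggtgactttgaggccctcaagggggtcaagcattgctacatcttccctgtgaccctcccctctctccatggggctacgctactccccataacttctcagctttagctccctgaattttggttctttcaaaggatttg
Prtn3 promoter, plus strand, chr10:79879417-79879716: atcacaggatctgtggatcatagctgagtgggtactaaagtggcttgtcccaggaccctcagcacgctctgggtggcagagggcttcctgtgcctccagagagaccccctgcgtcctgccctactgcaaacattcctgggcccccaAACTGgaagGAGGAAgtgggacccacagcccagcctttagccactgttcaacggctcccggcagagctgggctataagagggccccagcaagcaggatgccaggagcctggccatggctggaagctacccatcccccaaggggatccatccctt
The Mpo window holds GAGGAA at 247 and 224 bases before the RefSeq start and AACTG at 165 bases before it. The Prtn3 window holds GAGGAA 95 bases and AACTG 104 bases before its RefSeq start. In GENCODE M21 the genes start elsewhere: Mpo at 87793581, inside its window, and Prtn3 at 79874476, before its window. The distances therefore hold for the RefSeq starts only. These letters are common: 28.3% of 32851 promoters of this length hold GAGGAA on either strand and 44.8% hold AACTG. Neither window held the core letters TTGCAA, bound by proteins of the C/EBP family and present in 6.23% of promoters. The RUNX core, TGTGGT, present in 16.8% of promoters, had no match either. Nor did the GATA core, AGATAA, present in 11.2% of promoters. The Cst7 window, not shown, held TGTGGT 188 bases and AACTG 171 bases before its RefSeq start, and no GAGGAA. The Rsad1 window, also not shown, had no match to any of these letters. Myb transcript averaged 408 ± 189 CPM in Mpo-detected cells and 413 ± 245 CPM in Mpo-undetected cells, and it was detected in every cell of both sides. Spi1 was detected (5 or more counts, as throughout) in 1 of the 7 Mpo-detected cells, number 22 at 43.5 CPM, and in 6 of the 12 Mpo-undetected cells, at up to 46.9 CPM.

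Mpo (ENSMUSG00000009350, GRCm38 chromosome 11, 87793581 to 87804413, plus strand) had 34 counts in cell 2, 305 in cell 3, 6 in cell 4, 8 in cell 7, 44 in cell 8, 11 in cell 13 and 111 in cell 22. In CPM these are 22.95, 268.5, 3.45, 4.98, 27.3, 6.79 and 96.5. Cells 2, 3, 8 and 22 thus stood well above cells 4, 7 and 13. On the Mpo-undetected side, cell 11 had 4 counts, cell 10 had 3, cells 14, 16 and 17 had 1 each, and the other 7 had 0. With 3 counts as the limit that a 0 leaves, the cells at 0 could hold up to 1.39 to 2.21 CPM. The cells just inside the line, 4 and 7, held 6 and 8 counts, and those just outside, 11 and 10, held 4 and 3. With every cell thinned to 1135880 counts, cell 4 had 4 Mpo counts and 6 of the 7 cells stayed at 5 or more. Pooled over cells, Mpo stood at 50.2 CPM in Mpo-detected cells (519 counts, exact Poisson 95% interval 45.9 to 54.7) and 0.499 CPM in Mpo-undetected cells (10 counts, 0.239 to 0.917), which is the split itself and covers counting error only. Reads of the antisense gene Gm11505 at this locus cannot be told apart without strand.

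The Klf1-low cells put these levels in scale. They held Mpo at 7227 CPM in cell 1, 738 in cell 9, 275 in cell 19, 2507 in cell 23 and 7.31 in cell 24. The highest Mpo-detected cell, number 3, was thus close to cell 19, while the other 6 lay under 100 CPM. Mpo reached 5 counts in 7 of 19 kept cells (36.8%, exact binomial 95% interval 16.3 to 61.6) and in 5 of 5 Klf1-low cells (interval 47.8 to 100). The intervals take cells as independent draws, which cannot be checked because the labels name no embryo. Both shares rest on the Klf1 and Mpo values that chose the cells, so they describe that choice only.

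The wells of the detected cells were not spread evenly over the plate. Mpo was detected in 5 of the 7 kept cells that share a plate row with a Klf1-low cell, and in 2 of the 12 kept cells in other rows. It was detected in 4 of 6 kept cells of plate column 1, 2 of 7 of column 2 and 1 of 6 of column 3. Mpo-undetected cells 20 and 21 share their row with cell 19 and had 0 counts. This grouping was made after the values were seen, and the part of plate position in the split was not tested. Another 27 genes gave 37 cases in which a cell held at least 500 CPM and at most 6 other cells had 5 or more counts. A gene high in more than 1 cell gave a case for each, so the other wells can include cells that express it. In these cases, 5 or more counts were found in 8.11% of wells in the same row, 14.3% of wells in the same column and 13.3% of the rest. At 1 count or more these shares were 31.1%, 33.2% and 22.01%. The limit of 6 other cells bounds the shares at 5 counts in advance. Mpo, with 5 or more counts in 7 kept cells, is over that limit. The shares are therefore no comparison for Mpo.

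**Figure D1:**
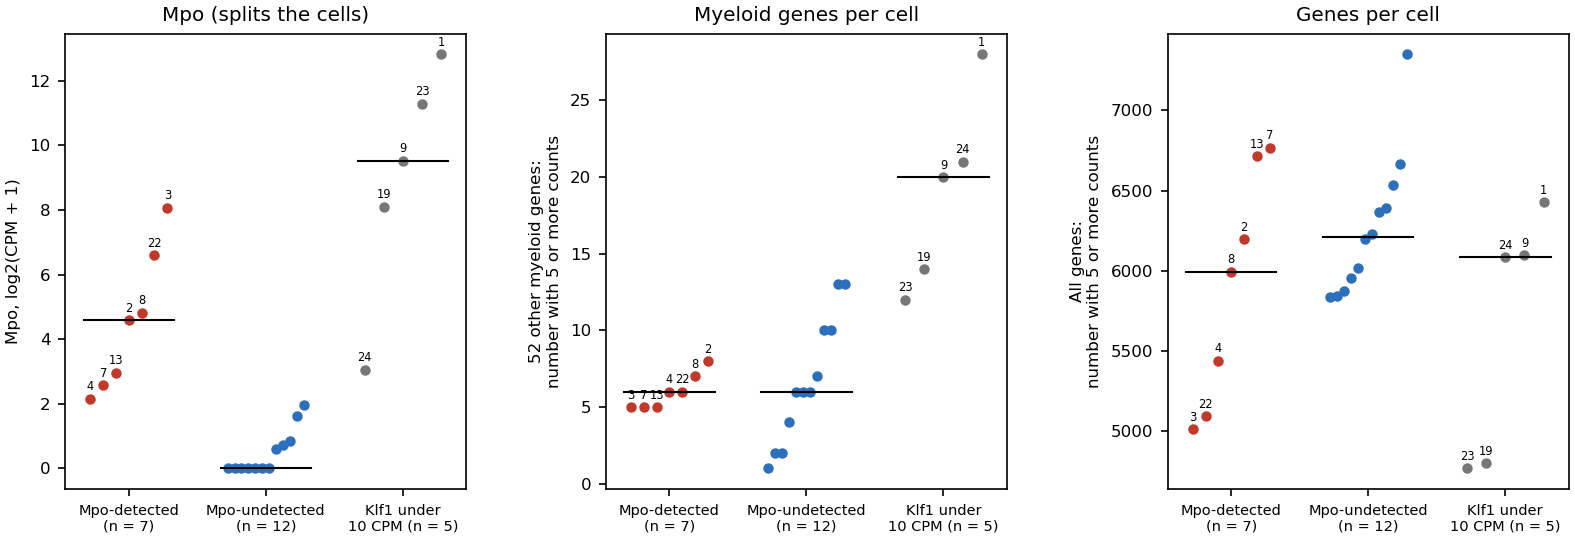
Each point is 1 cell, in order of value within its group, and bars mark medians. Left, Mpo as log2(CPM + 1); middle, how many of 52 other myeloid genes had 5 or more counts; right, how many of all genes had 5 or more counts. Mpo-detected cells had 5 to 8 other myeloid genes, inside the 1 to 13 of Mpo-undetected cells, while Klf1-low cells had 12 to 28.

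Total counts were 1478081 ± 240635 in Mpo-detected cells and 1671555 ± 290586 in Mpo-undetected cells. The number of genes with 5 or more counts had a median of 5994 in Mpo-detected cells, with a range of 5013 to 6767, and a median of 6213 in Mpo-undetected cells, with a range of 5836 to 7349. Cells 3, 22 and 4 had fewer genes than any Mpo-undetected cell, with 5013, 5091 and 5439. After thinning, the medians were 5839 genes in Mpo-detected cells and 6113 genes in Mpo-undetected cells. Mitochondrially encoded genes took 3.19% ± 0.732 of counts in Mpo-detected cells and 3.57% ± 0.528 in Mpo-undetected cells.

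The number of other myeloid genes in Mpo-detected cells lay inside the range of Mpo-undetected cells. Of 52 other genes of neutrophil granules, granulocyte-monocyte progenitors and myeloid regulators, 5, 5, 5, 6, 6, 7 and 8 were detected in the Mpo-detected cells, against a median of 6 and a range of 1 to 13 in Mpo-undetected cells. The widest myeloid sets among erythroid cells were in the Mpo-undetected cells 6 and 16, with 13 each, and 10 and 20, with 10 each. Of these, cell 10 had the lowest Klf1 of all kept cells, at 32.4 CPM. It also had their lowest level of erythroid maturation genes and their highest level of hepatocyte genes. After thinning the medians were 6 on both sides. The summed level of the 52 genes had a median of 360 CPM (119 to 1091) in Mpo-detected cells and 256 CPM (84.4 to 939) in Mpo-undetected cells, so the ranges overlapped almost wholly. In the Klf1-low cells it ran from 2299.9 to 8361 CPM.

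Most granule genes other than Mpo were at or near 0 counts in both sides. Of 23 such genes, 9 had 0 counts in all 19 erythroid cells: Elane, Ms4a3, Fcnb, Hp, Ngp, Ltf, Cebpe, Gfi1 and Hk3. Only 3 passed the filter of 5 counts in at least 6 kept cells, so no count over the list can stand for the list. Prtn3, which encodes proteinase 3, had 51.1 CPM in cell 3, 9.21 in cell 4 and 97.4 in cell 22, and 0 in the other Mpo-detected cells. Among Mpo-undetected cells it had 29.9 CPM in cell 11, 16.5 in cell 14, 40.8 in cell 16 and 49.7 in cell 21, and at most 1 count in the rest. Prtn3 was thus detected in 3 of 7 Mpo-detected and 4 of 12 Mpo-undetected cells, and cells 2 and 8, with 34 and 44 Mpo counts, held none. In cell 1 there were 8758 Mpo and 1444 Prtn3 counts, in cell 3 there were 305 and 58, and in cell 22 there were 111 and 112. Part of the Prtn3 locus overlaps Plppr3 on the other strand, so the gene's reads may be shared.

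Cst7, which encodes the protease inhibitor cystatin F, had 652 CPM in cell 3, 59.5 in cell 8 and 95.7 in cell 22, and 0 in the other 4 Mpo-detected cells. It was detected in 8 of 12 Mpo-undetected cells, with a median of 49.2 CPM and a highest value of 227. The difference of Cst7 in mean log2(CPM + 1) was −1.001, lower in Mpo-detected cells, while its mean CPM was higher there, at 115 ± 240 against 53.6 ± 63.6 in Mpo-undetected cells. Cell 3 holds most of the mean CPM of its side. Cathepsin G, Ctsg, gave 2 counts in cell 4 and 1 in cell 22, and 0 in the other kept cells, against 429 in cell 1.

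Among 30 myeloid regulators and receptors, 5 passed the filter. Cebpg, a widely expressed C/EBP family member, was detected in 2 of 7 Mpo-detected cells and 9 of 12 Mpo-undetected cells, with a log2 difference of −2.50. That difference reversed to 0.23 with Mpo called at 1 or more counts, and it was still negative but under 2 in size on log2(CPM + 10) and without cells 3 and 22. Runx1, a regulator of blood progenitors, was detected in 6 of 7 Mpo-detected and 9 of 12 Mpo-undetected cells, at 48.0 ± 67.4 CPM in Mpo-detected cells and 30.9 ± 29.0 CPM in Mpo-undetected cells. The leucocyte integrin gene Itgb2 had a difference of 0.89 and the leucocyte phosphatase gene Ptprc one of 0.60. Each was smaller than its SD over cells, which is the spread of single cells and not of the difference. Cebpa was detected in 1 Mpo-detected cell, number 2, and in 2 Mpo-undetected cells. Cd34, a surface marker of early progenitors, reached 5 counts in no erythroid cell of either side, with at most 3 counts, and held 192 to 2183 counts in each Klf1-low cell. Irf8, Csf1r and Tyrobp, which mark monocyte and other myeloid cells, had at most 1 count in any kept cell.

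**Figure D2:**
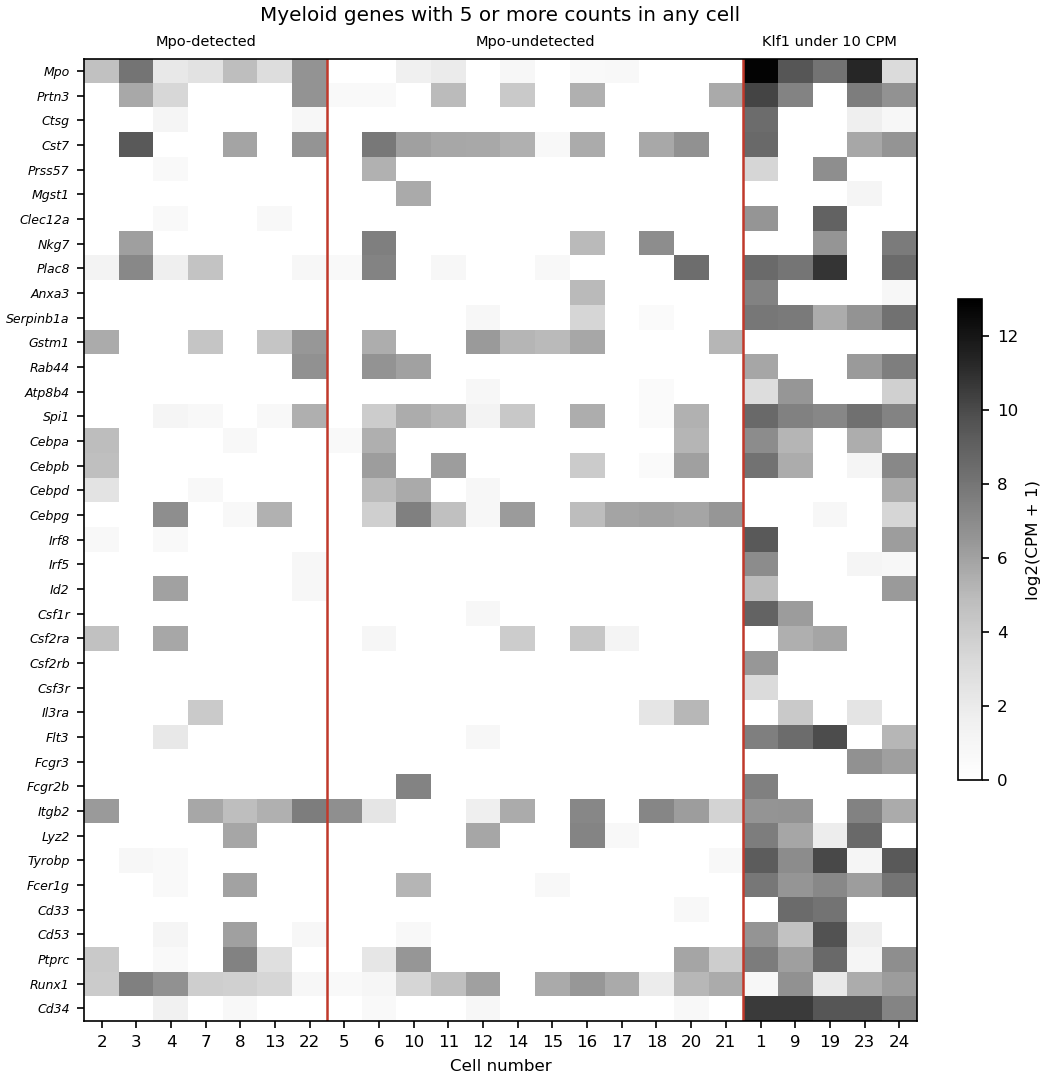
Columns are the 24 cells by side, rows the myeloid genes with 5 or more counts in any cell, and grey levels log2(CPM + 1). Mpo-detected and Mpo-undetected cells show scattered single genes, such as Cst7 in cells 3 and 6, and the 5 Klf1-low cells on the right share long runs of them.

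The Mpo-detected cells differed among themselves. In the 4 cells with 20 or more Mpo counts, 25 of 208 myeloid gene values were at 16 counts or more, and in the 3 cells with 5 to 19 Mpo counts 14 of 156 were. Cells 3 and 22 held both Prtn3 and Cst7, cell 8 held Cst7, and cell 2 held neither. Cell 8 also carried Ptprc at 169 CPM, Lyz2, the lysozyme gene of myeloid cells, with 89 counts, and the receptor chain gene Fcer1g with 101 counts. Cell 4 stood out by traces: 11 of the 52 myeloid genes had 1 to 4 counts there, among them Cd34 with 3, Spi1, Ctsg and Cd53 with 2 each, against a median of 2 such genes in Mpo-detected cells and 2 in Mpo-undetected cells, and Flt3, a cytokine receptor gene of early progenitors, had 6. Cell 12, on the Mpo-undetected side, had 9 such traces.

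Klf1, the erythroid regulator used to choose the cells, stood at 523 ± 293 CPM in Mpo-detected cells and 522 ± 235 CPM in Mpo-undetected cells. Its range was 244 to 1008 CPM in Mpo-detected cells and 32.4 to 903 CPM in Mpo-undetected cells, with cell 10 lowest. Gata1 stood at 407 ± 146 CPM in Mpo-detected cells and 375 ± 106 CPM in Mpo-undetected cells, with ranges of 188 to 598 in Mpo-detected cells and 237 to 562 in Mpo-undetected cells. Kit, the receptor for stem cell factor, stood at 358 ± 244 CPM in Mpo-detected cells and 311 ± 162 CPM in Mpo-undetected cells. Epor, the erythropoietin receptor gene, was detected in 6 of 7 Mpo-detected and all 12 Mpo-undetected cells, at 207 ± 130 CPM in Mpo-detected cells and 147 ± 95.2 CPM in Mpo-undetected cells. Myc stood at 1026 ± 490 CPM in Mpo-detected cells and 914 ± 373 CPM in Mpo-undetected cells. Zbtb7a, which takes part in globin gene control, stood at 66.2 ± 66.5 CPM in Mpo-detected cells and 28.2 ± 20.9 CPM in Mpo-undetected cells. E2f4, a regulator of the cell cycle in red cell precursors, stood at 289 ± 145 CPM in Mpo-detected cells and 165 ± 73.0 CPM in Mpo-undetected cells. Lyl1, a relative of Tal1, was detected in 5 of 7 Mpo-detected and 11 of 12 Mpo-undetected cells, with a log2 difference of −1.72. In all of these genes, Zbtb7a, E2f4 and Lyl1 included, the cells of the sides overlapped. Zbtb7a, E2f4 and Lyl1 were chosen after their values were seen.

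Over all genes, 7672 had 5 or more counts in at least 6 kept cells, with Mpo left out. The measure is the difference of mean log2(CPM + 1), Mpo-detected minus Mpo-undetected, and a gene is counted as past the line at 2 or more in size. Its median over all genes was −0.077 and the middle 95% ran from −2.48 to 1.99. Past the line were 185 genes that were higher in Mpo-detected cells (2.41%) and 395 that were lower (5.15%). Whichever single cell was left out, 84 of the higher and 221 of the lower genes stayed past the line. A gene found on 1 side alone met the filter in 6 of the 7 Mpo-detected cells or in 6 of the 12 Mpo-undetected cells. The higher and lower counts are therefore not drawn alike. On log2(CPM + 10), 5 genes higher in Mpo-detected cells and 15 genes lower in Mpo-detected cells were past it. Compared within plate columns and averaged, 322 were higher and 777 lower. Without cells 3 and 22, the cells with the fewest genes, 327 were higher and 383 lower. No gene separated the sides: in 0 of 7672 genes (0.00%) did all 7 Mpo-detected cells lie above all 12 Mpo-undetected cells, and in 0 (0.00%) did they all lie below.

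Members of the gene lists past the line are set beside the shares of all genes, 2.41% upward and 5.15% downward. Of 24 erythroid regulators that passed the filter, 0 were past the line upward and 1 downward, with a median difference of 0.06. The gene past it was Tal1, a partner of Gata1, detected in 3 of 7 Mpo-detected and 12 of 12 Mpo-undetected cells at 20.1 ± 34.3 CPM in Mpo-detected cells and 66.4 ± 44.9 CPM in Mpo-undetected cells. Of 17 early progenitor genes 0 were past it upward and 3 downward (Tal1, Meis1 and Etv6), with a median of 0.06. That downward share is above the 5.15% of all genes. Gata2, a progenitor GATA factor, was detected in 4 of 7 Mpo-detected and 10 of 12 Mpo-undetected cells. It averaged 252 ± 550 CPM in Mpo-detected cells, where cell 3 held 1487, and 166 ± 190 CPM in Mpo-undetected cells.

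Of 23 erythroid maturation genes, with a median of −0.13, 0 were past the line upward and 2 downward, against 5.15% of all genes downward. They were Optn, an autophagy receptor gene, and Car1, the carbonic anhydrase gene of early red cells. Car1 had a median of 31.5 CPM (0 to 1248) in Mpo-detected cells and 331 CPM (0 to 5252) in Mpo-undetected cells. Its difference of −2.31 ran from −3.12 to −1.40 as single cells were left out, the last without cell 2. Of 28 haem and iron genes 1 was past it upward, against 2.41% of all genes, and 0 downward. It was Ppox, an enzyme of haem synthesis, detected in 7 of 7 Mpo-detected and 7 of 12 Mpo-undetected cells. Ppox stood at 110 ± 72.5 CPM in Mpo-detected cells and 35.8 ± 41.6 CPM in Mpo-undetected cells. None of 37 S phase genes, 30 of ribosome biogenesis and translation, 19 of leucocyte actin and lysosome, 14 of megakaryocytes and platelets and 9 of stress was past it in either direction. Their medians were −0.04, 0.08, 0.19, −0.45 and −0.17.

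By count, genes of G2 and M phase had the most members past the line: 7 of 36 were lower in Mpo-detected cells, against 5.15% of all genes, and 0 were higher. They were the kinase genes Plk1 and Aurkb, the kinesin genes Cenpe and Kif2c, the topoisomerase gene Top2a, Ckap2l and Anln. Plk1, which drives entry into mitosis, stood at 36.6 ± 63.0 CPM in Mpo-detected cells and 173 ± 163 CPM in Mpo-undetected cells, and was detected in 2 of 7 Mpo-detected and 10 of 12 Mpo-undetected cells. Aurkb, a kinase of chromosome segregation, stood at 43.3 ± 59.2 CPM in Mpo-detected cells and 202 ± 193 CPM in Mpo-undetected cells. Bub1, Bub1b and Nuf2, of the spindle checkpoint and kinetochore, went the other way by 1.78, 1.35 and 1.60, short of the line. The median over the 36 genes was −0.68. The mean level of the list was 4.82 ± 1.10 in Mpo-detected cells and 5.71 ± 1.28 in Mpo-undetected cells on the log2(CPM + 1) scale, and the ranges of 3.06 to 6.64 in Mpo-detected cells and 3.35 to 8.12 in Mpo-undetected cells overlapped. Cells 3 and 22, with the fewest genes detected, had low G2 and M levels of 3.06 and 4.40. The list's difference was −0.89. With the 4 cells of 20 or more Mpo counts set against the 12 Mpo-undetected cells it was −1.53. Without cells 3 and 22 it was −0.45, and 5 of 36 genes were past the line downward and 2 upward.

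**Figure D3:**
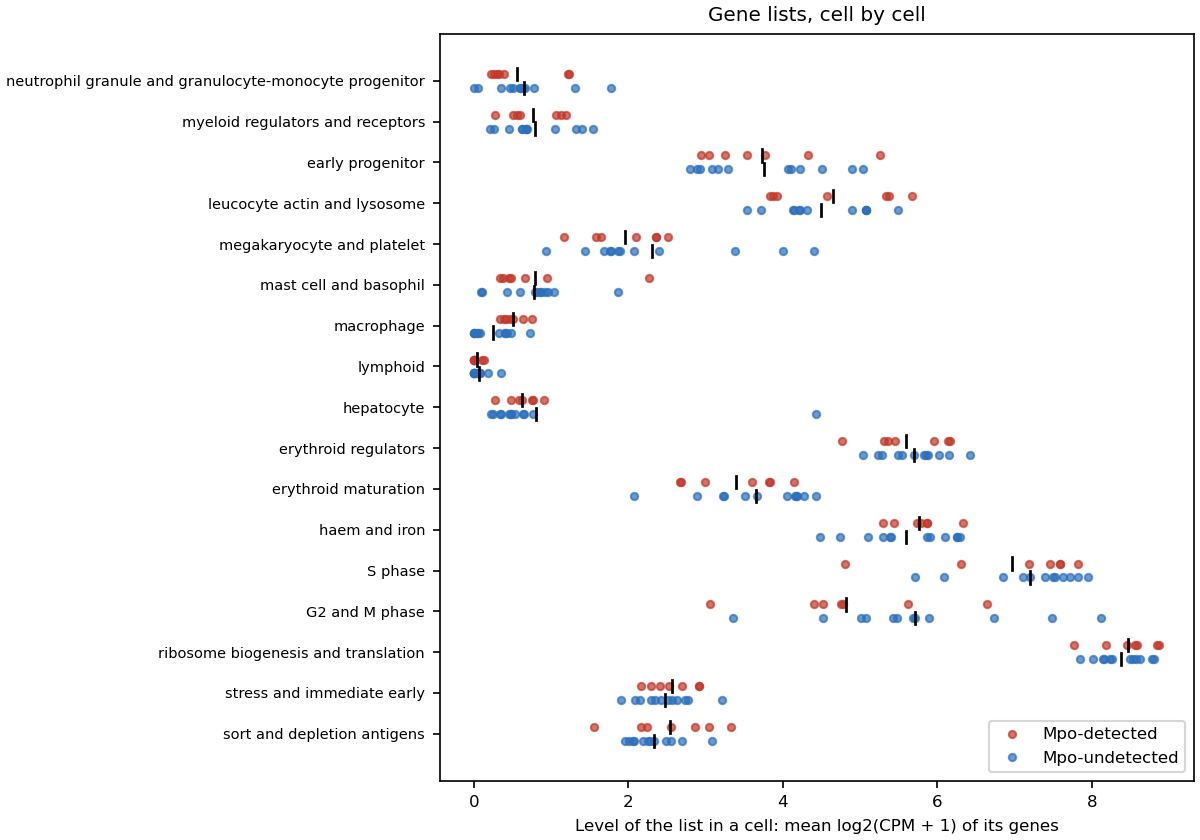
Each point is the level of a gene list in a cell, the mean log2(CPM + 1) of its genes without Mpo, with Mpo-detected cells above Mpo-undetected cells and bars at the means. The cells overlap in every list, and the widest gap between means is that of G2 and M phase, at −0.89.

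Markers of macrophages and lymphoid cells were mostly at or near 0, while those of mast cells and hepatocytes varied widely over cells. Of 16 macrophage genes 13 had 0 counts in all 7 Mpo-detected cells, and 10 in all 19 kept cells. The summed level ran from 41.7 to 172 CPM in Mpo-detected cells and 0 to 116 CPM in Mpo-undetected cells. In cells 2, 3, 7 and 8 it was made up wholly of Slc40a1. Slc40a1 was the 1 gene of this list that passed the filter, and it is described below among genes chosen for their difference. Of 18 lymphoid genes 14 were at 0 in all Mpo-detected cells, with at most 2.61 CPM summed, against up to 76.5 CPM in Mpo-undetected cells. Mast cell and basophil genes summed to a median of 149 CPM (29.6 to 670.5) in Mpo-detected cells and 151 CPM (1.19 to 862) in Mpo-undetected cells. Hepatocyte genes summed to 8.80 to 52.9 CPM in Mpo-detected cells and 4.79 to 1472 CPM in Mpo-undetected cells, with the highest in cell 10.

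The genes at the ends of the ranking were chosen for the size of their difference among 7672 genes, so that their values describe the ends and support nothing further. Each end was drawn from the 12 largest differences among named genes detected in at least 50% of the cells of the higher side, with a difference of 1 or more whichever single cell was left out, and 11 genes of each end are described. At the higher end the differences ran from 3.39 to 5.23, and an Mpo-detected cell lay above an Mpo-undetected one in 60 to 79 of the 84 pairs.

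Rsad1 (chromosome 11, 94539798 to 94549255), which encodes a mitochondrial relative of a bacterial haem chaperone, led the higher end. It had 49.3 CPM in cell 2, 109 in cell 3, 0 in cell 4, 37.9 in cell 7, 109 in cell 8, 74.6 in cell 13 and 76.5 in cell 22. Among the 12 Mpo-undetected cells there was 1 count, in cell 15. Pooled, it stood at 62.1 CPM in Mpo-detected cells (643 counts, exact Poisson 95% interval 57.4 to 67.1) and 0.0499 CPM in Mpo-undetected cells (0.00126 to 0.278), for counting error only. Rsad1 was detected in 6 of 7 Mpo-detected cells and 0 of 12 Mpo-undetected cells. It thus passed the filter of 6 cells through the Mpo-detected side alone, and it was picked for this difference. Of the Klf1-low cells, cells 1 and 9 held 53.6 and 75.5 CPM, and cells 19, 23 and 24 at most 1 count.

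Kdm1a, which encodes the histone demethylase LSD1 that works with Gfi1b, was detected in all 7 Mpo-detected and 7 of 12 Mpo-undetected cells. It had 13.5 CPM in cell 2, 159 in cell 3, 75.4 in cell 4, 110 in cell 7, 83.1 in cell 8, 66.0 in cell 13 and 29.6 in cell 22. Mpo-undetected cells had a median of 5.03 and a highest value of 53.7 CPM, so that 5 Mpo-detected cells lay above all of them. Slc40a1, the iron exporter ferroportin, averaged 89.4 ± 46.5 CPM in 7 of 7 Mpo-detected cells and 28.4 ± 38.2 CPM in Mpo-undetected cells, of which 5 had it. Med26, a Mediator subunit gene, averaged 66.1 ± 28.6 CPM in Mpo-detected cells and 15.4 ± 22.4 CPM in Mpo-undetected cells. Sp3, a transcription factor gene, averaged 103 ± 49.1 CPM in Mpo-detected cells and 41.9 ± 69.4 CPM in Mpo-undetected cells. Kdm1a overlaps Luzp1 on the other strand, and Med26 and Sp3 overlap antisense genes. Of the genes described next, Abraxas2 overlaps Fgfr2 on the other strand and Atr overlaps antisense genes.

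The rest of the higher end was detected in 5 or 6 of 7 Mpo-detected cells and in 1 to 5 of 12 Mpo-undetected cells. Mcl1, which protects cells from apoptosis, stood at 85.5 ± 61.6 CPM in Mpo-detected cells and 12.002 ± 18.6 CPM in Mpo-undetected cells. The interferon-gamma receptor gene Ifngr2 stood at 96.9 ± 90.8 CPM in Mpo-detected cells and 25.6 ± 47.8 CPM in Mpo-undetected cells. Atr, a kinase gene of the DNA damage response, stood at 57.7 ± 46.3 CPM in Mpo-detected cells and 13.5 ± 28.7 CPM in Mpo-undetected cells. The G protein gene Gna11 stood at 66.8 ± 61.2 CPM in Mpo-detected cells and 1.49 ± 3.08 CPM in Mpo-undetected cells, and was undetected in cells 7 and 13. Ilvbl stood at 42.4 ± 36.7 CPM in Mpo-detected cells and 1.01 ± 2.74 CPM in Mpo-undetected cells. Abraxas2, of a deubiquitinase complex, had its highest value, 354 CPM, in the Mpo-undetected cell 18 and stood at 107 ± 87.0 CPM in Mpo-detected cells and 33.8 ± 101 CPM in Mpo-undetected cells.

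At the lower end the differences ran from −4.22 to −3.83, and an Mpo-detected cell lay below an Mpo-undetected one in 64 to 80 of the 84 pairs. Pbk, a kinase gene of dividing cells, had 34.0 CPM in cell 4, 182 in cell 7 and 123 in cell 13, and at most 1 count in cells 2, 3, 8 and 22. All 12 Mpo-undetected cells held it, with a median of 210 CPM and a range of 7.85 to 344. Pooled, Pbk stood at 53.4 CPM in Mpo-detected cells (49.1 to 58.1) and 194 CPM in Mpo-undetected cells (188 to 199.8), with exact Poisson 95% intervals that cover counting error only.

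Mdm4, an inhibitor of p53, was detected in 4 of 7 Mpo-detected cells and all 12 Mpo-undetected cells, at 18.7 ± 27.9 CPM in Mpo-detected cells and 100 ± 66.9 CPM in Mpo-undetected cells. Cpsf4, of mRNA 3' end processing, was detected in 2 of 7 Mpo-detected and 12 of 12 Mpo-undetected cells, at 9.22 ± 20.96 CPM in Mpo-detected cells and 65.8 ± 50.1 CPM in Mpo-undetected cells. Smchd1, a chromatin protein of X inactivation, was also detected in 2 of 7 Mpo-detected and 12 of 12 Mpo-undetected cells, at 10.9 ± 18.7 CPM in Mpo-detected cells and 61.2 ± 40.1 CPM in Mpo-undetected cells. The other 7 were detected in 1 or 2 Mpo-detected cells and 9 to 11 Mpo-undetected cells. They were Ccdc71, the mitochondrial rRNA methyltransferase gene Mrm1, the lysosomal gene Glmp, the actin-binding gene Lasp1, the splicing factor gene Prpf18, Lancl1 and the corepressor gene Rere. Of these, Mrm1 averaged 5.04 ± 12.02 CPM in Mpo-detected cells and 60.9 ± 46.4 CPM in Mpo-undetected cells. Ccdc71 overlaps Klhdc8b, and Glmp overlaps Tmem79, on the other strand. Smchd1, Rere and Mdm4 overlap noncoding genes or pseudogenes on the other strand.

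**Figure D4:**
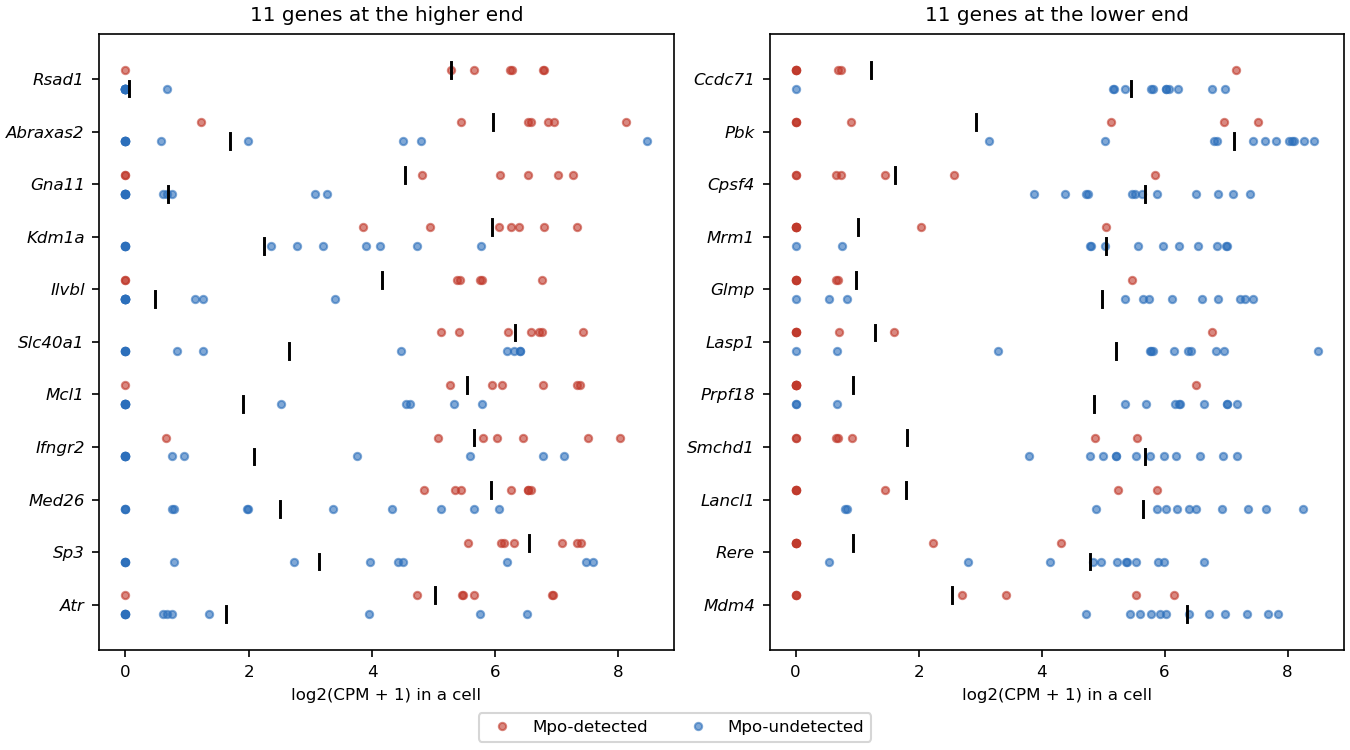
The 11 genes described at each end of the ranking, with log2(CPM + 1) of each of the 7 Mpo-detected cells above and each of the 12 Mpo-undetected cells below, and bars at the means. The sides overlap in all of these genes. In Rsad1, 6 of 7 Mpo-detected cells lie above every Mpo-undetected cell, and in Cpsf4, 6 of 7 lie below every Mpo-undetected cell.

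Genes of the sort are given last. Itga2b, which encodes the depleted antigen CD41, was detected in 6 of 7 Mpo-detected and 8 of 12 Mpo-undetected cells, at 184 ± 148 CPM in Mpo-detected cells and 123 ± 159 CPM in Mpo-undetected cells. Cd24a was detected in 5 of 7 Mpo-detected and 6 of 12 Mpo-undetected cells, at 131 ± 132 CPM in Mpo-detected cells and 80.3 ± 122 CPM in Mpo-undetected cells. Tfrc, which encodes CD71, was detected in 5 of 7 Mpo-detected and 10 of 12 Mpo-undetected cells, at 46.3 ± 37.7 CPM in Mpo-detected cells and 75.4 ± 73.5 CPM in Mpo-undetected cells. The log2 difference of each of these 3 genes was smaller than the SD over cells. That SD is the spread of single cells, not of the difference. As single cells were left out, the difference ran from 1.33 to 2.68 for Itga2b, 0.92 to 2.31 for Cd24a and −0.64 to 0.35 for Tfrc.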

How the data were processed

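The authors deposited 1 table of raw counts, genes by 24 single cells, from non-stranded Smart-seq2 libraries, per the labels' protocols. Per the submitters' processing notes, STAR 2.4 and featureCounts were used with GRCm38. Which annotation and counting options were set is not given in the sources used here. Of 49585 identifiers, 49326 had a symbol in GENCODE M21. Total counts ran from 876983 to 2155010 per cell, and intervals and floors cover counting error only, since PCR copies are not independent molecules. No doublet caller was run on the sorted wells.

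CPM is counts over a cell's total, times 1000000. Cells with Klf1 at 10 CPM or more were split at 5 Mpo counts, and genes with 5 or more counts in at least 6 kept cells were compared as mean log2(CPM + 1). No animal is named, so each side is 1 sample and no p-value was made. The members and the 17 lists were chosen with earlier results of these data known. Named are the genes of the 2 myeloid lists that passed the filter, the 12 at each end (the largest differences among genes detected in at least 50% of the cells of the higher side that kept a difference of 1 whichever cell was left out), the 3 highest of each other list and a fixed set of 13. At each end 1 gene is not reported here. Genes named outside that rule were chosen after their values were seen. Python 3.11.15, numpy 2.4.6, pandas 2.3.3 and scipy 1.17.1 were used, and the measure was tested on simulated cells. Alternatives were the pseudocount, size factors, thinning, filters, the Mpo and Klf1 thresholds, plate column and leaving out single cells.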

Additional observations from a re-analysis of the deposited data

Results flagged for a closer look

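Among the 7 Mpo-detected cells, 20 values lay far from the others by Dixon's ratio at its 95% critical value, on the log2 scale for genes. About 1 in 20 groups is marked so by chance, and genes that are 0 in most cells are marked readily. How many groups were looked at is not given here, so the 20 values cannot be set against that share. Ribosomal protein genes took 5.45% of counts in cell 4. The mast cell and basophil level was 2.26 in cell 22. High single cells were Spi1 at 43.5 CPM in cell 22, Cebpa at 27.7 CPM in cell 2, Ccdc71 at 142 CPM and Prpf18 at 90.7 CPM in cell 13, Mrm1 at 32.2 CPM and Lasp1 at 108 CPM in cell 22, Glmp at 43.5 CPM in cell 7 and Alb at 26.5 CPM in cell 13. Low single cells were Rsad1 at 0 CPM and Ifngr2 at 0.576 CPM in cell 4, Abraxas2 at 1.35 CPM and Epor at 0 CPM in cell 2, Mcl1 and Cdc20 at 0 CPM in cell 3, Atr at 0 CPM in cell 8, Lmo2 at 29.9 CPM in cell 4, Myc at 190 CPM in cell 22 and Itga2b at 1.24 CPM in cell 7.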

How the results depend on the processing

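The counts were 185 genes higher in Mpo-detected cells and 395 genes lower in Mpo-detected cells. With single cells left out they were 170 to 243 higher and 389 to 551 lower, but these are sizes of lists whose members change. Only 84 of the higher genes and 221 of the lower genes stayed past the line whichever cell was left out. A pseudocount of 10 gave 5 higher and 15 lower, and 13 of 24 named genes past the line stayed past it. With Mpo at 1 or more counts 16 of the 24 did; Cebpg, Ilvbl, Slc40a1, Med26, Atr, Cpsf4, Rere and Car1 did not. A filter of 10 cells gave 120 higher. Mpo at 10 or more counts gave 288 higher. Averages within plate columns gave 322 higher and 777 lower. Chosen after seeing the data, Mpo at 20 or more counts (4 cells against 12) gave 355 higher and 934 lower, and leaving out cells 3 and 22 gave 327 higher. The causes were not tested. With Mpo at 1 or more counts, Cebpg reversed, to 0.23. Without the Klf1 threshold (12 cells against 12), granule, myeloid regulator and erythroid regulator levels differed by 0.48, 0.99 and −0.93, since the Klf1-low cells then sit on the Mpo-detected side. Over single cells left out the level differences ran from −0.19 to 0.023 for granule genes, −0.11 to 0.047 for myeloid regulators, −0.28 to 0.11 for early progenitor genes, −0.20 to 0.029 for erythroid regulators, −1.19 to −0.59 for G2 and M phase. No paired analysis was possible because there is 1 group of cells and replicate numbers name cells only.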
